A study of Homo sapiens with 6 samples.

Results

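Cholesterol and fatty acid synthesis was examined through 36 genes, chosen by name from the 53719 rows of the gene count table. The rule used no measured value, but the genes were listed with earlier results of these data known. They comprise the sterol sensors and SREBP (sterol regulatory element-binding protein) transcription factors, the enzymes from acetoacetyl-CoA to cholesterol, 2 sterol transport genes, and the enzymes that make, lengthen, desaturate and activate fatty acids. The RNA came from H9 cells, an established line of human embryonic stem cells, kept in RSeT, a commercial medium for a naive-type state. The knockdown group (3 libraries, lettered a, b and c) was transfected with an antisense gapmer against ALR, the alpha satellite RNA made from centromeric repeats. The control group (3 libraries, also a, b and c) received a control gapmer. RNA was taken 48 h after transfection in both groups, so transfection with an oligonucleotide is common to all 6 libraries. A gapmer is a short antisense oligonucleotide whose DNA core lets RNase H cut the paired RNA. All libraries come from a single cell line, and the labels do not say whether the letters are separate cultures. The p-values below therefore measure the spread between these libraries, which may be technical.

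As background, cells build cholesterol from acetyl-CoA through mevalonate, farnesyl diphosphate, squalene and lanosterol, and build fatty acids from the same acetyl-CoA through malonyl-CoA. SREBP precursors are escorted by SCAP from the endoplasmic reticulum to the Golgi for cleavage when sterols are low, and INSIG proteins hold SCAP back when sterols are high. SREBF2 products act mainly on the cholesterol genes and SREBF1 products mainly on the fatty acid genes, and pluripotent cells are known for active synthesis of both lipid classes.

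Total counts were 25087629 to 33698831 in the knockdown libraries and 28834926 to 36576752 in the controls. Knockdown library a stood apart, with counts in 29678 rows against 25898 to 26788 in the other 5 libraries. The alpha satellite target has 0 rows in the table under its own name, so the knockdown itself could not be checked here. Pluripotency markers were abundant: the 8 listed genes summed to 4754 to 5278 CPM (counts scaled to library size) in the knockdown and 4623 to 4715 CPM in the control libraries, although SOX2 was listed at 0. This sum, too, was higher in every knockdown library than in any control. POU5F1 had 133 ± 16.9 CPM in the knockdown and 99.8 ± 13.3 CPM in the control libraries, a larger log2 fold change (0.42; edgeR adjusted p = 0.0948) than that of any lipid gene tested, and LIN28A also lay higher without overlap (log2 fold change 0.19). DPPA4 went the other way, lower without overlap (899 ± 19.6 against 941 ± 11.8 CPM, log2 fold change -0.06). Of the 10 naive markers, 9 were tested and 0 passed; the highest mean CPM was that of TFCP2L1 (28.7 ± 3.03 in the knockdown and 27.0 ± 2.77 CPM in the control libraries). KLF17 had at most 10 counts in any library, and DPPA5 had 1.12 ± 0.123 CPM in the knockdown and 0.999 ± 0.210 CPM in the control libraries (SD, n = 3 each). DNMT3L lay lower (log2 fold change -0.72) and FGF4 higher (0.36) in the knockdown, both without overlap. Markers of trophectoderm and amnion summed to 56.0 to 58.9 CPM in knockdown and 56.2 to 63.5 CPM in control libraries. Nearly all of that sum was TFAP2C (54.0 ± 0.628 CPM in the knockdown and 58.1 ± 3.39 CPM in the control libraries). GATA2, the next highest of that list, had 0.774 ± 0.156 and 0.696 ± 0.0849 CPM. Markers of endoderm and mesoderm summed to 15.7 to 18.3 CPM in knockdown and 12.1 to 14.8 CPM in control libraries, higher in all 3 knockdown libraries. MIXL1 made up most of that sum (13.1 ± 0.888 and 11.3 ± 1.19 CPM). The part of these marker differences in the results below was not tested. The sums overlapped between groups for the lists of naive (79.0 to 89.9 CPM over all libraries) and of neural and fibroblast (389 to 491) markers. The latter sum was mostly NES (369 ± 26.4 CPM in the knockdown and 320 ± 28.4 CPM in the control libraries).

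The lipid synthesis genes had similar levels in knockdown and control libraries, with small differences at most. Of the 36 genes, 34 had enough counts to be tested, and 0 passed a Benjamini-Hochberg adjusted p of 0.05 over all 19721 genes in edgeR's quasi-likelihood test, in which 0.786% of all genes passed (0.137% higher and 0.649% lower in the knockdown). By unadjusted p under 0.05 there were 4 (11.8% of those tested, against a background of 14.3%): FASN, ACLY and SCD lay higher in the knockdown libraries, where 6.68% of all genes did so, and INSIG2 lower, where 7.57% did. With limma-voom 0 passed, and with DESeq2's Wald test 1 did, FASN, in a fit where 1.46% of all genes passed. Without knockdown library a, 0 passed in edgeR and 5 had an unadjusted p under 0.05: ACLY, FASN and INSIG2 as before, with FDPS and MVD in place of SCD. The share of all genes at an unadjusted p under 0.05 was not computed without that library. The log2 fold changes ran from -0.23 (INSIG2) to 0.28 (FASN). In RNA from whole cultures, fewer cells of a type and less RNA per cell cannot be told apart.

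The precision of the measurement bounds what could have been missed between these libraries, whose spread may be technical. For 32 of the 34 genes the 95% interval of the log2 fold change lay inside ±0.5, and for all 34 it lay inside ±1. The exceptions to the narrower bound were IDI1, whose interval reached -0.54, and SCD5, whose interval reached 0.58. These intervals are not adjusted for the number of genes. The log2 fold change was above 0 for 28 of the 34 genes (82.4%), against 54.4% of all genes tested, and the median was 0.05 against 0.02. The order of the medians turned with DESeq2's Wald test (0.04 against 0.06) and with no low-count filter (0.05 against 0.07). Both of these fits keep low-count rows (32300 rows). In every other alternative the lipid median stayed above that of all genes, as with a mean count of at least 50 (0.05 against 0.008). The balance towards higher values rested partly on knockdown library b: without it, 20 of the 34 were above 0 and the median was 0.03 (0.006 for all genes). In 5 of the 34 genes (14.7%) every value of 1 group lay beyond every value of the other, against 18.9% of all genes tested. These were FASN, ACLY, SCD and ELOVL6 on the higher side, where 9.55% of all genes lay, and INSIG2 on the lower side, where 9.37% lay.

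**Figure D1:**
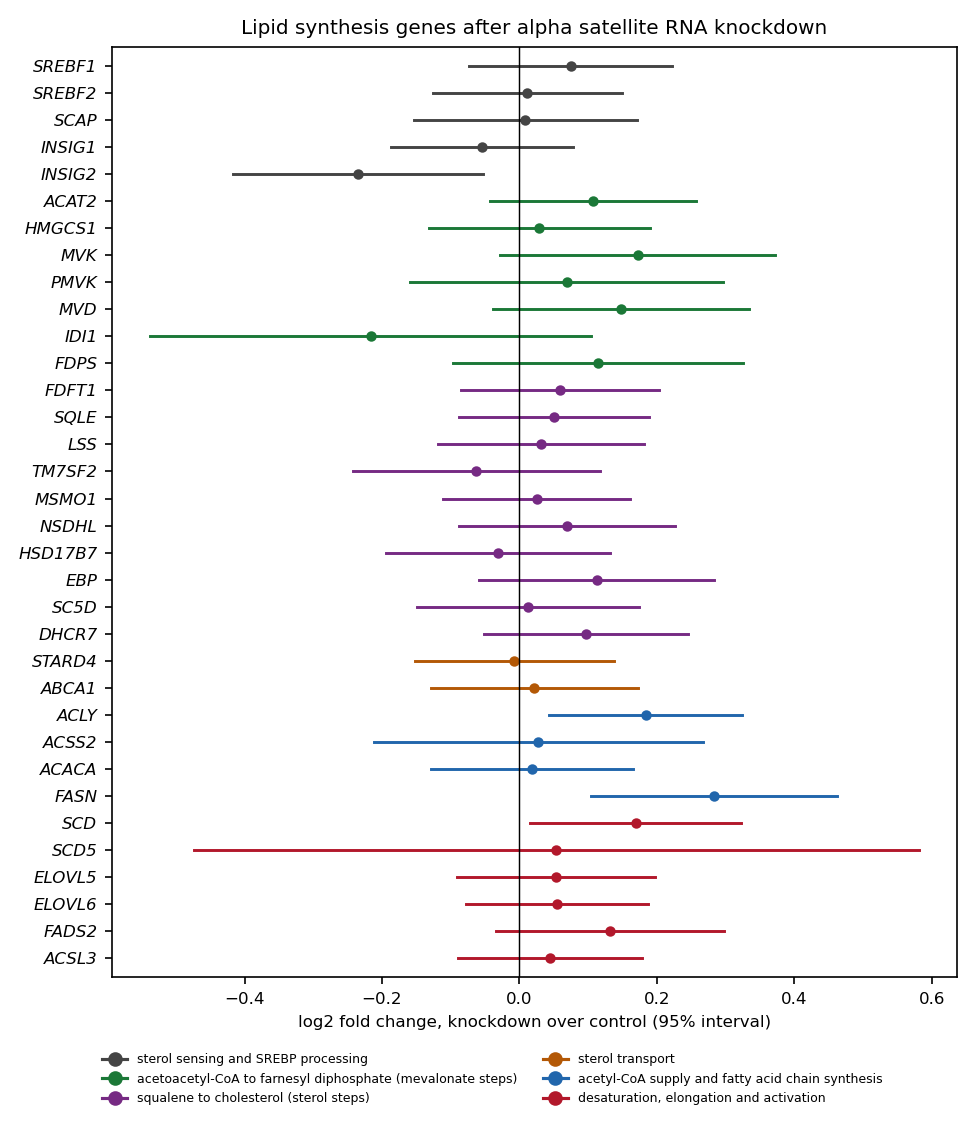
Log2 fold change of each of the 34 tested genes (x axis, knockdown over control; points, edgeR estimate; bars, 95% interval) with the genes on the y axis coloured by role. FASN at 0.28 lies farthest to the right and INSIG2 at -0.23 farthest to the left, and 30 of the 34 intervals include 0.

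Among the sterol sensors and SREBP genes, 0 of 5 passed the adjusted threshold, and INSIG2 was the only one of the 5 with an unadjusted p under 0.05. INSIG2 (ENSG00000125629.14, chromosome 2, 118088452 to 118110997 in GRCh38) encodes an endoplasmic reticulum protein that retains SCAP when sterols are plentiful. Its level was 16.7, 15.3 and 16.7 CPM in the knockdown (libraries a, b and c in order, here and below) and 19.0, 18.5 and 19.7 CPM in the control libraries. Every knockdown library lay below every control, and the log2 fold change was -0.23 ± 0.08 (SE; 95% interval -0.42 to -0.05; edgeR adjusted p = 0.236). Its paralog INSIG1, itself a well-known SREBP target and feedback inhibitor, had 64.0, 62.2 and 62.2 CPM against 63.7, 66.0 and 65.9 CPM. The INSIG1 groups overlapped, with a log2 fold change at -0.05 ± 0.06 (SE; edgeR adjusted p = 0.739). The number of INSIG2 counts per INSIG1 count, in which library scaling cancels, was 0.261, 0.246 and 0.268 in the knockdown and 0.299, 0.281 and 0.299 in the control libraries. This ratio was chosen after the values were seen; the groups did not overlap (exact permutation p = 0.10, two-sided, the smallest that 3 against 3 libraries can give).

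SREBF2, the transcription factor gene most tied to cholesterol synthesis, was the most abundant of the 5 in CPM. It had 383, 416 and 403 CPM in the knockdown and 393, 402 and 397 CPM in the control libraries, which overlapped. The log2 fold change was 0.01 ± 0.06 (SE; 95% interval -0.13 to 0.15; edgeR adjusted p = 0.954). SREBF1, tied to fatty acid synthesis, had 220 ± 11.8 CPM against 209 ± 9.67 CPM (SD, n = 3 each) and a log2 fold change of 0.07 (95% interval -0.07 to 0.22). The number of SREBF1 counts per SREBF2 count was 0.549 ± 0.00910 in the knockdown and 0.526 ± 0.0294 in the control libraries, and the groups overlapped (exact permutation p = 0.40, two-sided). SCAP, the escort of both SREBP precursors, had 103 ± 9.06 CPM against 102 ± 4.16 CPM, a log2 fold change of 0.009. For the 4 genes of the sensing machinery other than INSIG2, the groups overlapped.

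**Figure D2:**
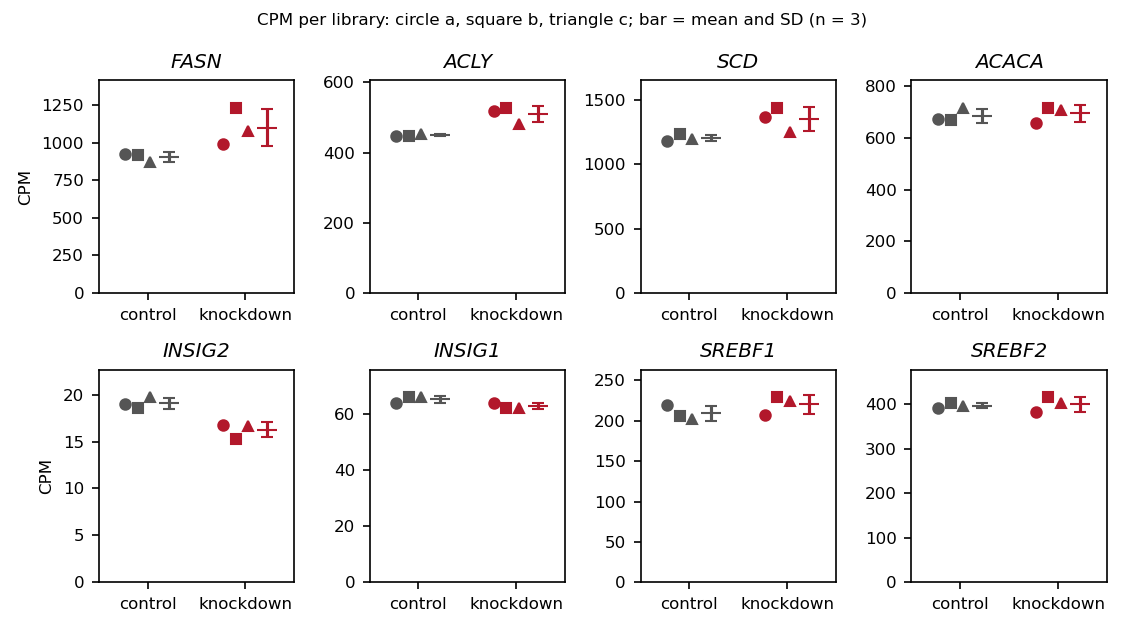
CPM (y axis, from 0) in each library for 8 genes, by group (x axis); circles, squares and triangles are libraries a, b and c, and bars give the mean and SD over 3 libraries. The knockdown points of FASN, ACLY and SCD all lie above the control points and those of INSIG2 all below, whereas those of ACACA, INSIG1, SREBF1 and SREBF2 overlap the controls.

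The 7 genes of the mevalonate steps gave 0 calls, and 0 of the 7 had an unadjusted p under 0.05. HMGCS1, which condenses acetoacetyl-CoA with acetyl-CoA, was the most abundant in CPM. It had 275, 274 and 236 CPM in the knockdown and 247, 265 and 257 CPM in the control libraries; knockdown libraries a and b lay above the controls and library c below them. Its log2 fold change was 0.03 ± 0.07 (SE; 95% interval -0.13 to 0.19; edgeR adjusted p = 0.896). ACAT2, the cytosolic thiolase that supplies acetoacetyl-CoA, had 92.7, 92.0 and 80.9 CPM against 82.3, 81.7 and 82.6 CPM. Again knockdown library c lay below the controls, unlike a and b, and the log2 fold change was 0.11 ± 0.07 (SE; edgeR adjusted p = 0.515).

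MVK, the kinase that phosphorylates mevalonate, had 24.9, 28.4 and 25.2 CPM in the knockdown and 25.8, 22.7 and 21.3 CPM in the control libraries. Control library a reached into the knockdown range, and the log2 fold change was 0.17 ± 0.09 (SE; 95% interval -0.03 to 0.37; edgeR adjusted p = 0.426). MVD, which decarboxylates mevalonate diphosphate, had 27.1, 29.9 and 32.8 CPM against 28.8, 25.7 and 26.6 CPM. It too overlapped through control library a (log2 fold change 0.15 ± 0.09, SE; edgeR adjusted p = 0.466). PMVK, the kinase between them in the pathway, had 10.2 ± 0.141 and 9.77 ± 0.733 CPM. FDPS, the synthase that makes farnesyl diphosphate, had 31.6 ± 4.05 and 29.2 ± 2.07 CPM, a log2 fold change of 0.11.

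IDI1, the isomerase that makes dimethylallyl diphosphate, had the most negative value of the mevalonate steps. Its counts were 213, 200 and 209 in the knockdown and 248, 224 and 336 in the control libraries, or 7.51, 5.99 and 8.27 against 8.72, 7.21 and 9.25 CPM. The groups overlapped, and the log2 fold change was -0.22 ± 0.15 (SE; 95% interval -0.54 to 0.10; edgeR adjusted p = 0.542).

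The 11 genes from squalene to cholesterol gave 0 calls among the 10 tested and 0 at an unadjusted p under 0.05, with log2 fold changes from -0.06 (TM7SF2) to 0.11 (EBP). FDFT1, which joins farnesyl diphosphate into squalene and commits it to sterols, had the highest CPM of them. It had 309, 333 and 298 CPM in the knockdown and 294, 307 and 302 CPM in the control libraries. The groups overlapped, with a log2 fold change at 0.06 ± 0.07 (SE; 95% interval -0.08 to 0.20; edgeR adjusted p = 0.733). EBP, the sterol isomerase, had 33.8, 36.9 and 32.9 CPM against 34.3, 31.8 and 29.9 CPM, with a log2 fold change at 0.11 ± 0.08 (SE; edgeR adjusted p = 0.553). Its groups overlapped through control library a.

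SQLE, the monooxygenase that oxidises squalene and a known control point, had 204 ± 9.67 CPM in the knockdown and 197 ± 4.28 CPM in the control libraries. LSS, which closes the rings to lanosterol, had 183 ± 13.9 and 179 ± 1.45 CPM. MSMO1 and NSDHL, which remove the 4-methyl groups, had log2 fold changes of 0.03 and 0.07, and HSD17B7, which acts with them, had -0.03. The reductases TM7SF2 and DHCR7 had -0.06 and 0.10, and the desaturase SC5D had 0.01. The 95% intervals of all 10 tested genes of these steps included 0 and lay between -0.24 and 0.28.

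Sterol transport was represented by ABCA1, which exports cholesterol to lipoproteins and is a target of the oxysterol receptors, and STARD4, which carries cholesterol between membranes. ABCA1 had 735, 807 and 775 CPM in the knockdown and 740, 739 and 805 CPM in the control libraries. The groups overlapped across nearly their whole range, and the log2 fold change was 0.02 ± 0.07 (SE; 95% interval -0.13 to 0.17; edgeR adjusted p = 0.920). STARD4 had 62.3 ± 1.41 and 62.6 ± 3.62 CPM; the sign of its log2 fold change, -0.007 here, turned to 0.02 when scaled by library size alone and to 0.01 by upper quartile.

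The genes of fatty acid chain synthesis held the highest value of the whole set. FASN (ENSG00000169710.8, chromosome 17, 82078333 to 82098332 in GRCh38) encodes the multifunctional synthase that assembles palmitate. It had 992, 1234 and 1081 CPM in the knockdown and 927, 920 and 870.1 CPM in the control libraries. Each knockdown value exceeded each control value, and library b was the highest. The mean was 1102 ± 122 CPM against 906 ± 31.2 CPM (SD, n = 3 each), or 1.22-fold (95% interval 1.07 to 1.38). The log2 fold change was 0.28 ± 0.08 (SE; edgeR adjusted p = 0.148), short of the threshold. FASN passed with DESeq2's Wald test (DESeq2 adjusted p = 0.0213), where 1.46% of all genes did. It also passed in edgeR with no low-count filter (edgeR adjusted p = 0.0116), where 3.29% of all genes did. Over 14 alternative settings its adjusted p ran from 0.0116 to 0.490, and its log2 fold change was 0.19 without knockdown library b and 0.25 to 0.35 without any other single library.

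ACLY (ENSG00000131473.16, chromosome 17, 41866908 to 41930542) encodes the enzyme that splits citrate into cytosolic acetyl-CoA. Its level was 519, 528 and 483 CPM in the knockdown and 446, 448 and 452 CPM in the control libraries, with no overlap. The log2 fold change was 0.18 ± 0.06 (SE; 95% interval 0.04 to 0.32; edgeR adjusted p = 0.231). Without knockdown library c, ACLY and SCD passed (edgeR adjusted p = 0.0286 and 0.0298), in a fit where 6.40% of all genes did. That was the only one of the 14 alternatives in which either passed; with any other single library left out, SCD had an unadjusted p above 0.05 and its adjusted p was 0.439 to 0.617.

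ACACA, which makes malonyl-CoA and stands between ACLY and FASN in the pathway, did not share their pattern in value. It had 659, 717 and 710.0 CPM in the knockdown and 672, 671 and 717 CPM in the control libraries. The groups overlapped and the log2 fold change was 0.02 (95% interval -0.13 to 0.16). Per ACACA count there were 1.51, 1.72 and 1.52 FASN counts in the knockdown and 1.38, 1.37 and 1.21 in the control libraries, a ratio chosen after the values were seen (exact permutation p = 0.10, two-sided, the smallest possible). The corresponding numbers of ACLY counts were 0.789, 0.736 and 0.680 against 0.664, 0.669 and 0.630, also without overlap (exact permutation p = 0.10, two-sided). ACSS2, which makes acetyl-CoA from acetate, had 15.2 ± 1.35 and 14.9 ± 1.78 CPM.

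Of the 7 genes for desaturation, elongation and activation, 6 were tested, 0 passed, and all 6 had a log2 fold change above 0. SCD (ENSG00000099194.5, chromosome 10, 100347124 to 100364834), the desaturase that makes oleate from stearate, was the most abundant of the 36 genes in CPM. It had 1369, 1438 and 1252 CPM in the knockdown and 1184, 1231 and 1195 CPM in the control libraries. The groups did not overlap, but knockdown library c and control library b were close, and the log2 fold change was 0.17 ± 0.07 (SE; 95% interval 0.02 to 0.32; edgeR adjusted p = 0.305). Per ACACA count, SCD had 1.95 ± 0.165 counts in the knockdown and 1.75 ± 0.0854 in the control libraries, and these ratios overlapped (exact permutation p = 0.20, two-sided).

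FADS2, the delta-6 desaturase of polyunsaturated chains, had 435, 504 and 445 CPM in the knockdown and 437, 433 and 394 CPM in the control libraries. Control library a lay above knockdown library a, and the log2 fold change was 0.13 ± 0.08 (SE; edgeR adjusted p = 0.467). ELOVL6, which lengthens palmitate to stearate, had 336, 345 and 354 CPM against 333, 334 and 329 CPM, without overlap but with a log2 fold change of only 0.05 (95% interval -0.08 to 0.19). ELOVL5, the elongase of polyunsaturated chains, had 281 ± 16.5 and 271 ± 4.72 CPM. ACSL3, which activates fatty acids to acyl-CoA, had 457 ± 8.26 and 443 ± 8.18 CPM. SCD5, the second human stearoyl desaturase, had 60 to 88 counts per library and a log2 fold change of 0.05 with an interval of -0.47 to 0.58.

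**Figure D3:**
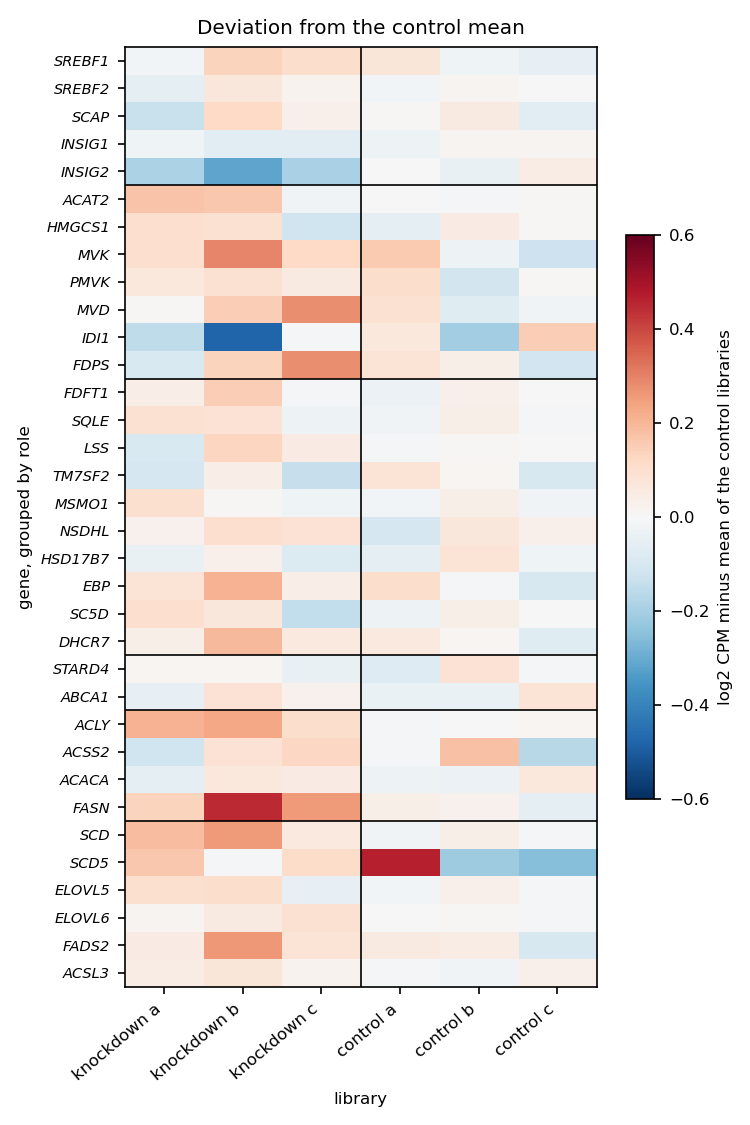
Log2 CPM of each tested gene (y axis, in blocks by role) in each library (x axis) minus the mean of the 3 control libraries; red is higher and blue lower, on a scale of ±0.6. Knockdown library b is the reddest column, with 30 of 34 genes above the control mean against 21 in each of knockdown libraries a and c, and INSIG2 is blue in all 3 knockdown columns.

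Summed over all 36 genes, the level was 8230, 8908 and 8223 CPM in the knockdown and 7849, 7939 and 7868 CPM in the control libraries. The groups did not overlap, and the difference of 568 CPM dropped to 308 CPM without knockdown library b. FASN, SCD and ACLY made up 71.6% of that difference (407 CPM); they were singled out after their values were seen, for lying higher. For the other 33 genes the sums, lowered in the knockdown relative to the control by that choice, were 5350, 5708 and 5408 CPM in the knockdown and 5291, 5339 and 5352 CPM in the control libraries, and the groups overlapped. As a share of all counts, the 36 genes held 0.846%, 0.882% and 0.828% in the knockdown and 0.774%, 0.786% and 0.781% in the control libraries.

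Both genes left untested had next to no counts in any library. FADS1, the delta-5 desaturase, was listed at 0 in all 6 libraries. CYP51A1, the lanosterol demethylase, had 3 counts in all, at most 1 per library. In GENCODE release 29, 100% of the span of FADS1 (chromosome 11, 61799625 to 61829318) lies within FADS2 on the opposite strand, although only 5.57% of its exon bases coincide with exons of other genes. For CYP51A1 (chromosome 7, 92112151 to 92134803), 99.96% of the span lies within another annotated gene on the same strand. FEN1, a neighbour that also lies mostly inside FADS2 (92.6% of its span), had at most 6 counts per library, and the pluripotency gene SOX2, wholly inside SOX2-OT, was listed at 0. Among all protein-coding genes with a row, 71.4% of the 2029 with at least 95% of their span inside other genes had 3 counts or fewer in total, compared with 3.71% of the 5124 with a share from 5% to under 95% and 6.61% of the 11033 with under 5%. How the authors assigned reads that fall in several genes is not given in the sources used here, and its part in these values was not tested; no level is drawn from either row.

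Smaller overlaps touched other genes of the set. IDI2-AS1 covers 50.4% of the span of IDI1 and RUSC1-AS1 31.9% of that of FDPS, both on the opposite strand, and 52.3% of the exon bases of ACAT2 coincide with exons of TCP1, SOD2 and SOD2-OT1. The antisense gene AC114947.2 covers 14.95% of the exon bases of HMGCS1, and 45.7% of the span of FADS2 lies in other genes. Whether strand was used in counting is not given in the sources used here, so reads of these 5 genes and of their opposite-strand neighbours may not be separated. No other gene's exons coincide with those of FASN, SCD, INSIG2 or ACACA, and 2.99% of the exon bases of ACLY do so.

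**Figure D4:**
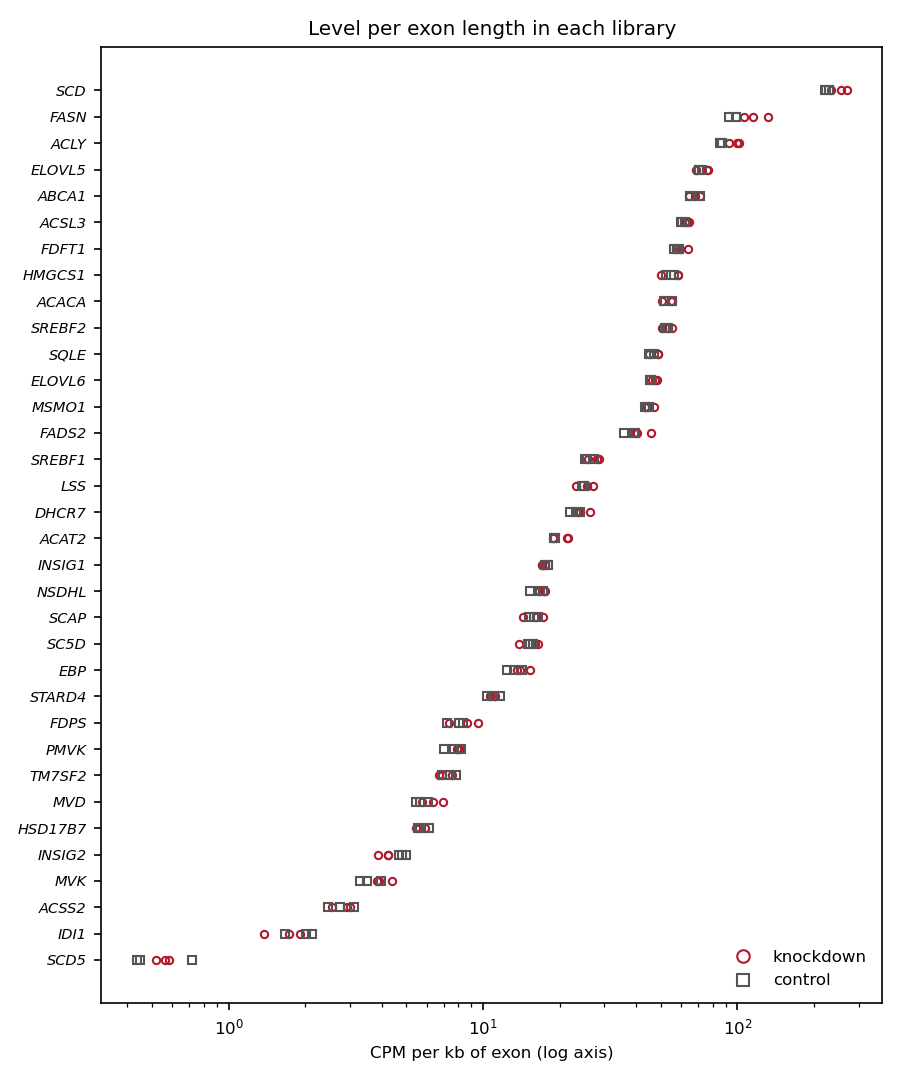
Level per exon length (x axis, CPM per kb of exon, log axis) of the 34 genes with more than 3 counts (y axis) in each library; red circles are knockdown and grey squares control libraries. SCD stands highest at a mean of 238 CPM per kb and SCD5 lowest at 0.545, and for most genes the symbols of the 2 groups lie on top of each other.

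Per kb of exon, the level of the genes spanned a wide range that was held in every library. SCD averaged 238 CPM per kb over the 6 libraries (range 221 to 268), followed by FASN at 107 (92.9 to 132) and ACLY at 91.9 (85.6 to 101). The ranges of FASN and ACLY overlapped, whereas that of SCD was above both. ELOVL5 (72.5 CPM per kb), ABCA1 (67.6) and ACSL3 (62.1) came next, ahead of the leading sterol genes FDFT1 (59.1) and HMGCS1 (55.1). The ranges of ELOVL5 and ABCA1 overlapped, as did those of ACSL3 and FDFT1, whereas ABCA1 (64.8 to 71.1) stayed above ACSL3 (60.3 to 64.2). At the low end stood INSIG2 (4.47), MVK (3.81), ACSS2 (2.80), IDI1 (1.80) and SCD5 (0.545). The 2 SREBP genes differed in level, SREBF2 at 52.8 (50.7 to 55.0) and SREBF1 at 26.7 (25.1 to 28.5) CPM per kb. Whether reads in introns were counted is not stated; divided by the whole span instead, SCD and FASN again came first and second, but ELOVL5 moved from rank 4 to rank 21 and ACACA from rank 9 to rank 25.

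Other genes of lipid metabolism, from lists written for this comparison, gave 0 calls as well. Among 24 genes of sterol regulation and handling, 23 were tested and 3 (13%) had an unadjusted p under 0.05, near the 14.3% of all genes. RNF145, a ubiquitin ligase of sterol regulation, had 22.9 ± 0.750 CPM in the knockdown and 18.2 ± 1.21 CPM in the control libraries, a difference of 0.33 ± 0.08 on the log2 scale (SE; edgeR adjusted p = 0.0970). PAQR3, a Golgi protein that binds the SCAP and SREBP complex, had 62.9 ± 0.971 against 72.5 ± 1.05 CPM, a difference of -0.20 ± 0.06 on the log2 scale (SE; edgeR adjusted p = 0.155). NPC2, a lysosomal cholesterol carrier, had 54.7 ± 4.12 against 62.1 ± 2.26 CPM (edgeR adjusted p = 0.281). BMP2K covers 55.9% of the span of PAQR3 on the opposite strand, and the same caution applies to its counts.

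Of 31 genes for acyl chain supply, elongation, activation and glycerolipid entry, 25 were tested. Of these, 10 (40%) had an unadjusted p under 0.05, a larger share than the 14.3% of all genes. In the knockdown 7 lay higher, where 6.68% of all genes did so, and 3 lower, where 7.57% did. This list, too, was written with earlier results of these data known. CYB5R3, the reductase that passes electrons to desaturases through cytochrome b5, had 69.9 ± 4.10 CPM in the knockdown and 57.9 ± 1.48 CPM in the control libraries (log2 fold change 0.27 ± 0.07, SE; edgeR adjusted p = 0.0920). TECR, the reductase of the last elongation step, had 67.7 ± 7.81 against 57.3 ± 3.84 CPM (0.24 ± 0.09, SE; edgeR adjusted p = 0.238). ELOVL7, another elongase, had 25.6 ± 4.22 against 33.0 ± 3.13 CPM (-0.38 ± 0.11, SE; edgeR adjusted p = 0.156). The groups overlapped for ELOVL7, and 25.9% of the span of TECR lies in DNAJB1 on the opposite strand.

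The isoprenoid branches gave 0 calls among 15 tested genes and 2 (13.3%) at an unadjusted p under 0.05, near the share of all genes and both lower: PDSS2, a synthase of the ubiquinone side chain (72.1 ± 7.07 against 82.1 ± 1.18 CPM), and RABGGTB, a subunit of the Rab prenyltransferase (166 ± 5.17 against 183 ± 7.49 CPM). Fatty acid oxidation, the opposing pathway, gave 0 calls among 20 tested genes and 2 at an unadjusted p under 0.05, a share of 10% against 14.3% of all genes. These were CPT1C, a brain-type carnitine palmitoyltransferase (16.7 ± 1.81 against 14.2 ± 0.603 CPM), and ACADM, the medium-chain acyl-CoA dehydrogenase (56.1 ± 4.15 against 63.3 ± 3.41 CPM).

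Promoter sequence from the RefSeq table (GRCh38.p14) is shown for ACLY, SCD and INSIG2, the genes with an entry among the 4 at an unadjusted p under 0.05, and for SREBF2, because SREBP proteins act on this gene family through short elements close to the start. The table had entries for 32 of the 36 genes. The motifs searched on both strands in the 250 bases before each start were TCACNCCAC (a sterol regulatory element type), CCAAT (bound by NF-Y, a known partner of SREBP), CACGTG (an E-box) and GGGCGG (a GC box). TCACNCCAC was found in 1 of the 32 genes, SREBF2 (3.13%), and in 1.09% of all genes in the table. CCAAT was found in 23 of the 32 genes (71.9%), compared with 37% of all genes and 40.9% of those tested here. GGGCGG was found in 30 of the 32 (93.8%, against 70.9% of those tested) and CACGTG in 5 (15.6%, against 10.7%). The following stretches run 5′ to 3′ on the gene's strand, hold no base of its GENCODE exons, and carry TCACNCCAC and CCAAT (or its complement ATTGG) in capitals. That of ACLY lies inside the GENCODE span, before a RefSeq start downstream of the outermost exon.
ACLY, chr17:41919023-41919272, minus strand: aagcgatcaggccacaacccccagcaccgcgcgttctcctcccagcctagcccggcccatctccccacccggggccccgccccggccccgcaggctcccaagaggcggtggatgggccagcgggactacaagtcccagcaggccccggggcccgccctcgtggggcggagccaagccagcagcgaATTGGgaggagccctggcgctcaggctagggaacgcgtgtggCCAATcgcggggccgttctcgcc
SCD, chr10:100346983-100347123, plus strand: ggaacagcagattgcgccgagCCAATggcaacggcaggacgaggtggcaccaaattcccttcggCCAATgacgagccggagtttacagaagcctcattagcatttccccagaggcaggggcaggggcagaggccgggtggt
INSIG2, chr2:118088221-118088451, plus strand: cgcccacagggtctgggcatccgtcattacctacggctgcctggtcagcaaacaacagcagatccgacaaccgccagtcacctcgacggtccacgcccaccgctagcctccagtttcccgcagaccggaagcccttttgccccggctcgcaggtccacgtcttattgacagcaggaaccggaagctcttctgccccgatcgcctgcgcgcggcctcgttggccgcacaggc
SREBF2, chr22:41832855-41833078, plus strand: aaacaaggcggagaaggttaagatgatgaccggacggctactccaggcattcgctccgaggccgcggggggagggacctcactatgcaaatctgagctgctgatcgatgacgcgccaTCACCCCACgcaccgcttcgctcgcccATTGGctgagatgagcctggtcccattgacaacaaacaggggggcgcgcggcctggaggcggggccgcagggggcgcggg
ACLY and SCD, which lay higher in all 3 knockdown libraries, each carry 2 CCAAT matches in the stretch shown, and INSIG2, which lay lower, carries 0. ELOVL6, which also lay higher without overlap, carries 0 in its full window. A relation between matches and direction was not tested. SREBF2 carries 1 TCACNCCAC match and 1 CCAAT match, and its level overlapped between groups. MVK and NSDHL had the most CCAAT matches, 5 each in the full window, and both overlapped between groups. A match of letters describes the sequence and is not evidence of binding. Only these exact letters in 250 bases were searched, so a missing match does not show that an element is absent.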

How the data were processed

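Per the submitters' processing notes, Trimmomatic 0.39, STAR 2.7.8a, featureCounts, Subread 2.14.2 and build hg38 were used; their settings, the annotation and the handling of shared reads are not given in the sources used here. The authors deposited raw read counts per gene symbol as whole numbers, with no scaling apparent. Genes were tested with edgeR 4.0.16 (R 4.3.3): filterByExpr defaults (19721 genes, 99.9% of counts), TMM scaling, glmQLFit and glmQLFTest with group as the only term, two-sided, Benjamini-Hochberg adjustment over all genes, threshold 0.05. SEs and 95% intervals use the fitted weights and moderated dispersion. CPM values use TMM-scaled library sizes, except summed marker levels and shares of counts, which use total counts. Alternatives used DESeq2 1.42.0 and limma 3.58.1. The procedure was tested on simulated data. Gene spans and exons came from GENCODE release 29 (GRCh38), promoter letters from RefSeq (GRCh38.p14). The 36 genes and all lists were chosen with earlier results of these data known. Described in full were genes past the threshold or, with none, the 8 with the smallest p, and in each of the 6 roles the most abundant and the one with the largest fold change at a mean count of at least 50; at most 3 genes per other list were named.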

Additional observations from a re-analysis of the deposited data

How the results depend on the processing

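Counts of lipid genes past the adjusted threshold, 0 with all libraries, were 1 with DESeq2's Wald test (FASN, higher) and 1 with no low-count filter (FASN, higher), and 0 to 2 when single libraries were left out (2 without knockdown library c: ACLY and SCD, both higher). At an unadjusted p under 0.05 there were 2 to 5 with single libraries left out, 2 each without knockdown library b, control library b or control library c. Genes without overlap between groups, 5 with all libraries, were 9 with library size alone, 8 with upper-quartile scaling and 6 to 14 with a library left out, where fewer libraries have to stay apart. The shares of all genes at an unadjusted p under 0.05 (14.3%) and without overlap (18.9%) were computed for the edgeR fit with all libraries and TMM scaling alone. Counts under the other settings therefore have no background beside them and are not read as results about the lipid genes. Over all genes, 155 passed, against 471 with DESeq2, 1064 with no filter and 26 to 1309 with a library left out (102 without knockdown a, 61 without knockdown b, 1309 without knockdown c, 26 without control a, and 42 without either control b or control c). The correlation of deviations between libraries of the same letter was -0.0109, 0.140 and -0.0104 for a, b and c, over 0.1 for b alone, so the letters were not taken to pair the libraries. With the replicate block 393 genes passed, none of them (0) among the lipid genes. The median log2 fold change of the lipid genes stayed between 0.03 and 0.08 over all 14 alternatives. Signs near 0 were not settled: with single libraries left out the log2 fold change ran from -0.0223 to 0.0409 for SREBF2, -0.0554 to 0.0742 for SCAP, -0.0113 to 0.0773 for HMGCS1, -0.0260 to 0.0862 for LSS, -0.0125 to 0.0366 for MSMO1, -0.0708 to 0.00469 for HSD17B7, -0.0365 to 0.0659 for SC5D, -0.0376 to 0.0309 for STARD4, -0.0169 to 0.0637 for ABCA1, -0.0523 to 0.116 for ACSS2, -0.0175 to 0.0538 for ACACA and -0.0797 to 0.329 for SCD5. STARD4 also changed sign by library size alone (0.0198) and by upper-quartile scaling (0.0103), and the cause was not tested for any of these. The widest intervals were those of IDI1 and SCD5; the part of depth in them was not tested.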
